A study of Mus musculus with 5 samples.

Results

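Integrins and laminins, the receptors with which a fibroblast holds its matrix and the cross-shaped glycoproteins of basement membranes, were followed across 5 RNA sequencing libraries. The cells were mouse embryonic fibroblasts of strain 129Sv, immortalized with SV40T, the large T antigen of the SV40 virus. Their genes were taken by symbol alone: of 23337 genes in the table, 37 encode an integrin α chain, an integrin β chain or a laminin chain, 26 of them integrin and 11 laminin chains. The tested cells were labelled SIRT3 -/- (KO, 2 libraries) and were compared with cells labelled wild type (WT, 3 libraries), both grown under normal conditions. The viral antigen, which inactivates p53 and the retinoblastoma protein, is common to both. No label says whether the libraries of a genotype are separate cultures, clones or lines, so a p-value here reflects library-to-library spread alone, which may be technical, and genotype and line cannot be told apart.

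An integrin is a pair of one α and one β chain, and the pair decides which ligand is bound. Most α chains pair with β1. Among them α3, α6 and α7 bind laminins, α1, α2, α10 and α11 bind collagens, and α5, α8 and αv bind the RGD sequence of fibronectin, vitronectin and related proteins. The αv chain also pairs with β3, β5, β6 and β8, α6 with β4, and α4 with β7, while the β2 integrins belong to leukocytes. A laminin is a trimer of an α, a β and a γ chain, joined in the endoplasmic reticulum. The α chain is needed for secretion of the trimer and carries the main sites for integrins.

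Between 33473103 and 41758681 reads per library were recovered from the deposited normalized read counts. Sirt3 itself was detected in all 5 libraries, at 200 and 217 normalized read counts in the KO-labelled libraries, against 170, 149 and 118 in the WT-labelled libraries. It was thus higher where the label says knockout, the values do not separate exons, and every direction below is between libraries as labelled. Its log2 fold change (KO-labelled over WT-labelled) was 0.53, and the 91 other tested genes within 5 Mb of it had a median of 0.31. Fibroblast markers were uneven. Vim, an intermediate filament gene of mesenchymal cells, was at 1907 and 1940 RPKM in the KO-labelled libraries and 2483, 2506 and 2559 RPKM in the WT-labelled libraries (RPKM is a read count scaled by transcript length and library size). Pdgfra, a receptor gene that often marks fibroblasts, was low in the KO-labelled libraries at 4.77 and 5.26 RPKM, against 79.4, 81.0 and 80.8 RPKM in the WT-labelled libraries. Col1a1, for a chain of collagen I, was at 573 and 651 RPKM in the KO-labelled libraries and 460, 461 and 494 RPKM in the WT-labelled libraries. Lum, a matrix proteoglycan gene, and Fap, a protease gene of activated fibroblasts, were nearly absent, at no more than 0.0144 and 0.0465 RPKM in any library. Dcn, for decorin, was low at 0.616 and 0.414 RPKM in the KO-labelled libraries, against 2.92, 2.53 and 2.50 RPKM in the WT-labelled libraries.

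Of the 37 genes, 31 had a normalized read count of 10 or more in at least 2 libraries and entered the test, limma on log2(normalized read count + 1) across 13062 genes with Benjamini-Hochberg adjustment. Of these, 6 were higher and 14 lower in the KO-labelled libraries at an adjusted p under 0.05. Together they were 64.5% of the tested members, next to 65.3% of all genes tested, so being called was no more common here than elsewhere. By direction, 19.4% of the tested members were higher, against 32.6% of all genes, and 45.2% were lower, against 32.6% of all genes. The median log2 fold change was -0.30 over the tested members and -0.0023 over all genes. A called difference of at least 2-fold was found in 25.8% of the tested members, against 13.0% of all genes. There were 3 such members higher, where 6.57% of all genes were, and 5 lower, where 6.41% of all genes were. In 25 of the 31, or 80.6%, every KO-labelled value lay on one side of every WT-labelled value, as in 75.4% of all genes. These shares describe the lists and carry no test. The 6 genes below the filter were Itgb6, Itgad, Itgal, Itgam, Itgax and Lama1, with 9 reads or fewer in every library. Fewer cells of a kind and less RNA per cell cannot be told apart in such bulk libraries.

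Promoters are shown for the genes with a called difference of at least 2-fold, a mean of 50 or more normalized read counts and an entry in the RefSeq promoter table (GRCm38.p6, the assembly mm10 also names), which holds 23 of the 37 genes. Of the 7 genes that met the rule on change and level, Itgb4 and Lama4 have no entry there, and the other 5 are shown. Each window runs from 250 bases before to 50 bases after the start of its entry in that table, 5′ to 3′ on the gene's strand. For Itga3, Itgb7 and Lama2 this start lies inside the RefSeq gene span, whose 5′ ends are at 95076844, 102233405 and 27617191. The Itgb7 window thus lies wholly within the gene, that of Lama2 almost wholly and that of Itga3 in part. Itgb1 and Itga3, whose products form α3β1, rose.
Itgb1, chr8:128685404-128685703, plus strand: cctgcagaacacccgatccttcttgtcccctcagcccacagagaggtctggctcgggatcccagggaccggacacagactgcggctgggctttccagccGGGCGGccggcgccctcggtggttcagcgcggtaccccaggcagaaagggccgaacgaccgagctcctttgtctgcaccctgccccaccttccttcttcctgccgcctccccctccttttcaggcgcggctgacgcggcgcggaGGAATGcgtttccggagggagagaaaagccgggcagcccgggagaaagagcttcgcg
Itga3, chr11:95076665-95076964, minus strand: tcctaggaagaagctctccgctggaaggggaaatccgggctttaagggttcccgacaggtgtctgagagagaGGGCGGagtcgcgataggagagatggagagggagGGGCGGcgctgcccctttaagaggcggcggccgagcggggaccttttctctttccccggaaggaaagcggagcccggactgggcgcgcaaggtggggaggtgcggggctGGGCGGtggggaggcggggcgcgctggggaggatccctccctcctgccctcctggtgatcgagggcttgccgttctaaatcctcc
Itgb7, Itga2 and the laminin gene Lama2 fell.
Itgb7, chr15:102231886-102232185, minus strand: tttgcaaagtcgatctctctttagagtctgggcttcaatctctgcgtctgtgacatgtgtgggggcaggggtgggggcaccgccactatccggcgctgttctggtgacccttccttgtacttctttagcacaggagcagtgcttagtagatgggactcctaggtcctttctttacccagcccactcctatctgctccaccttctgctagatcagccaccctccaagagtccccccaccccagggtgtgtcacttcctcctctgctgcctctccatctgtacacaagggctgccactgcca
Itga2, chr13:114932051-114932350, minus strand: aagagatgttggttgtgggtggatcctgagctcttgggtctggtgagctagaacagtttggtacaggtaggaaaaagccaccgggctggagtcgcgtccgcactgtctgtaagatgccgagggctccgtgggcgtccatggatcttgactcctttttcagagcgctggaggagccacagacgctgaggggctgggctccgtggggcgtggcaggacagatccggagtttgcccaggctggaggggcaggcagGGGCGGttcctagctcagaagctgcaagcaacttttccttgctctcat
Lama2, chr10:27616893-27617192, minus strand: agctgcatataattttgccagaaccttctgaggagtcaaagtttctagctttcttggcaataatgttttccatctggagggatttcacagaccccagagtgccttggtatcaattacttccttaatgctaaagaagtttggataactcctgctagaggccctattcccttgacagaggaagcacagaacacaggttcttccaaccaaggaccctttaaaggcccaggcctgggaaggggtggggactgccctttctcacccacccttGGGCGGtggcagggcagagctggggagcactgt
Capitals mark matches on either strand to 5 motifs: the GC box (GGGCGG), the CCAAT box (CCAAT), an AP-1 site (TGANTCA), a TEAD site (GGAATG) and the TATA box (TATAAA). The Itga3 window held 3 GC boxes, those of Itgb1, Itga2 and Lama2 held 1 each, and 35.7% of all 32851 promoters held at least 1. Itgb1 also held 1 TEAD match, found in 14.7% of promoters. No match to the CCAAT box, AP-1 or TATA box letters, which 37.4%, 7.81% and 13.6% of promoters hold, lay in any of the 5 windows, and the Itgb7 window held none of the 5 motifs. GC content was 67.3% for Itgb1, 66.7% for Itga3, 56.3% for Itgb7, 59.3% for Itga2 and 50.3% for Lama2, next to a median of 52.7% over all promoters.

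**Figure D1:**
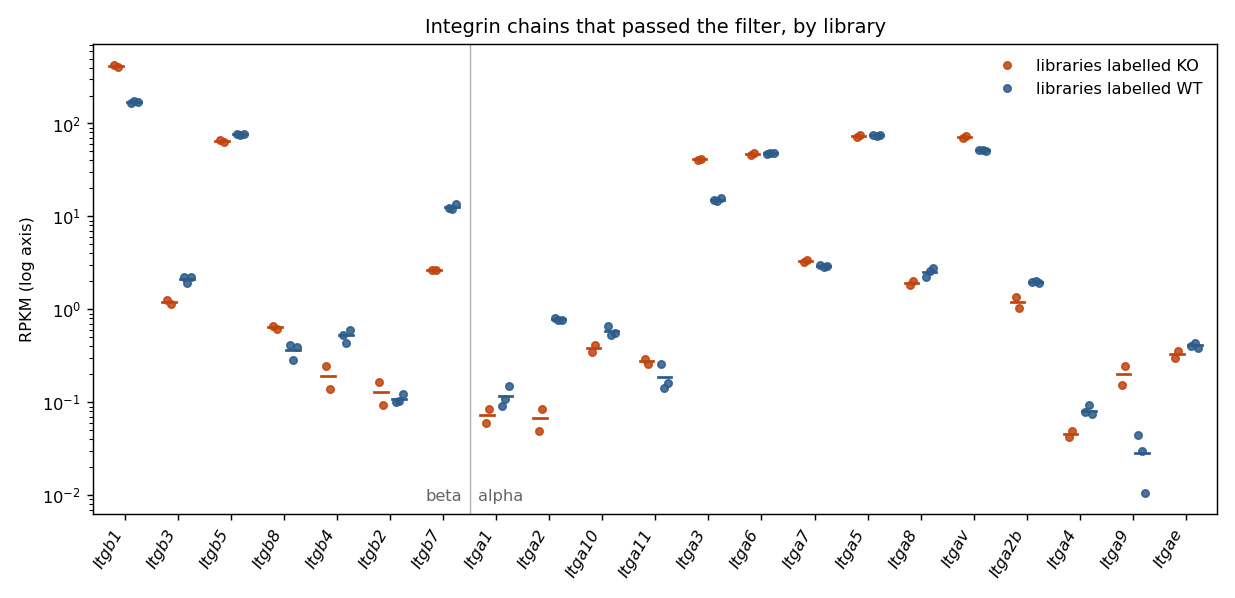
RPKM (log axis) of the 21 integrin chains that passed the filter, β chains to the left of the grey line and α chains to the right; each point is a library, labelled KO to the left of labelled WT, and each bar is the group mean. Itgb1 stands above every other chain in all 5 libraries, and Itga3, Itgav and Itgb1 sit higher in the libraries labelled KO, while Itgb7 and Itga2 sit lower there.

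Itgb1, the common β chain of collagen, laminin and fibronectin receptors, was the most abundant integrin transcript in every library and the one with the largest absolute rise. It had 65286 and 63094 normalized read counts in the KO-labelled libraries, against 26039, 26949 and 26254 in the WT-labelled libraries. Per length this was 422 and 403 RPKM in the KO-labelled libraries and 168, 174 and 170 RPKM in the WT-labelled libraries. Both KO-labelled libraries thus lay well above all 3 WT-labelled ones, with means that differed 2.43-fold (log2 fold change 1.28, SE 0.0377, limma adjusted p = 1.6e-17). The gene lies on chromosome 8 from 128685654 to 128733579 (mm10), in a stretch where its neighbours rose as well. All 30 other tested genes whose midpoints lie within 5 Mb were called higher in the KO-labelled libraries, where 32.6% of all genes tested were. Their median log2 fold change was 1.07. Less this median, Itgb1 remained higher by 0.21 on the log2 scale (adjusted p = 5.2e-05 with the same standard error). This p, like those below after removal of a local median, takes the median as fixed. It leaves out the spread among the neighbours, so it does not test whether a gene departs from its region.

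The α chains did not keep step with Itgb1. Over the 12 α chains that can pair with β1, the summed level was 234 and 244 RPKM in the KO-labelled libraries and 196, 197 and 197 RPKM in the WT-labelled libraries. Itgb1 transcripts per α chain transcript thus came to 1.80 and 1.65 in the KO-labelled libraries, against 0.859, 0.884 and 0.859 in the WT-labelled libraries. The groups were apart in both quantities. With 3 libraries against 2, the smallest p that an exact two-sided permutation test can give is 0.2. Groups that do not overlap always give it, so the test adds nothing to that. Of the 33 sums, shares and ratios on the RPKM scale, 31 had groups that did not overlap, as did 75.4% of all genes tested. Many of the 33 share chains and are not independent. Itga5, Itgav, Itga6 and Itga3 made up nearly all of the α chain sum in every library.

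**Figure D2:**
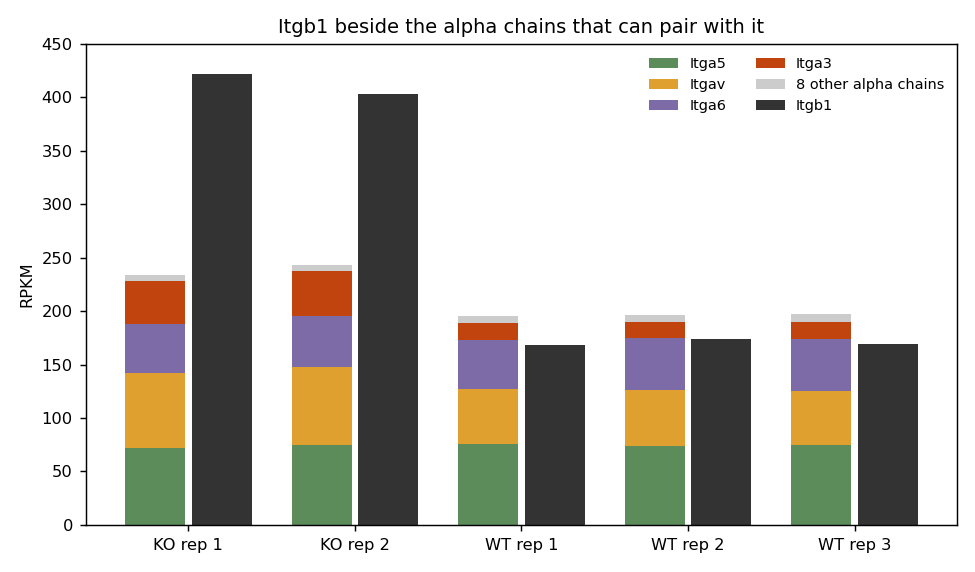
RPKM per library of the 12 α chains that can pair with β1, stacked by chain (left bar of each pair), and of Itgb1 (right bar); the libraries labelled KO stand to the left of those labelled WT. Itgb1 exceeds the α chain sum in the libraries labelled KO, at ratios of 1.80 and 1.65, and falls short of it in those labelled WT, at ratios between 0.859 and 0.884.

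Among the α chains of laminin receptors one rose and the others did not pass the test. Itga3, whose product with β1 binds laminins with an α5 or α3 chain, had 7226 and 7540 normalized read counts in the KO-labelled libraries, against 2700.2, 2644 and 2797 in the WT-labelled libraries. The groups were far apart and the means differed 2.72-fold (log2 fold change 1.44, SE 0.0422, limma adjusted p = 1.5e-17). Its 114 tested neighbours on chromosome 11 (95044475 to 95076844 for the gene itself) had a median log2 fold change of -0.048, and less this median Itga3 stood at 1.49. Itga6, for the more widely used laminin receptor chain, had 7054 and 7570 normalized read counts in the KO-labelled libraries and 7211, 7576 and 7532 in the WT-labelled libraries. These values overlapped (log2 fold change -0.026, SE 0.0408, adjusted p = 0.60). Itga7, of the muscle laminin receptor, had 478 and 506 in the KO-labelled libraries, against 448, 427 and 438 in the WT-labelled libraries. Its groups did not overlap but it missed the threshold (log2 fold change 0.17, SE 0.0848, adjusted p = 0.088), and its 80 tested neighbours had a median of -0.32. Less that median, taken as fixed, its difference was 0.49 (adjusted p = 4.4e-05 with the same standard error).

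The proportions within the laminin receptor α chains differed as well. Itga3 was 45.3% and 44.6% of the RPKM sum of Itga3, Itga6 and Itga7 in the KO-labelled libraries and 23.4%, 22.2% and 23.3% in the WT-labelled libraries. The sum itself was 89.1 and 93.2 RPKM in the KO-labelled libraries, against 64.6, 66.3 and 67.1 RPKM in the WT-labelled libraries. Itgb4, the partner of α6 in hemidesmosomes of epithelia, was scarce and lower in the KO-labelled libraries. It had 56.2 and 32.2 normalized read counts there, against 122, 99.9 and 137 in the WT-labelled libraries (log2 fold change -1.46, SE 0.224, limma adjusted p = 7.7e-06). A long noncoding RNA on the other strand, B230344G16Rik, covers 8.41% of its exonic bases, and as no strand setting is given in the sources used here, reads of both cannot be separated. At 0.247 and 0.140 RPKM in the KO-labelled and 0.536, 0.438 and 0.601 RPKM in the WT-labelled libraries it was far below Itga6, which stood above 45 RPKM in each.

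Receptors for the RGD sequence were dominated by α5, αv and β5. Itga5, of the main fibronectin receptor, had 11605 and 12117 normalized read counts in the KO-labelled libraries and 12166, 11957 and 12021 in the WT-labelled libraries. The groups overlapped (log2 fold change -0.023, SE 0.0366, limma adjusted p = 0.60). Itgav, for the α chain of several vitronectin receptors, had 18209 and 19229 in the KO-labelled libraries, against 13412, 13580 and 13327 in the WT-labelled libraries. It rose 1.39-fold with no overlap between the groups (log2 fold change 0.48, SE 0.0371, adjusted p = 2.6e-10). Per length, αv and α5 transcripts were nearly level in the KO-labelled libraries, with ratios of Itgav to Itga5 of 0.971 and 0.982, while the WT-labelled libraries gave 0.682, 0.703 and 0.686.

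The β partners of αv were split: of those tested, Itgb1 and Itgb8 were higher in the KO-labelled libraries and Itgb5 and Itgb3 lower. Itgb5, the only αv partner other than β1 above 3 RPKM, had 8052 and 7831 normalized read counts in the KO-labelled libraries, against 9286, 9182 and 9446 in the WT-labelled libraries. This small fall was larger than the spread between libraries (log2 fold change -0.23, SE 0.0369, limma adjusted p = 1.4e-05). There were 0.950 and 0.875 Itgb5 transcripts per Itgav transcript in the KO-labelled libraries, against 1.49, 1.45 and 1.52 in the WT-labelled libraries, on the RPKM scale. Itgb3, for the β chain of the vitronectin receptor of osteoclasts and platelets, had 268 and 248 normalized read counts in the KO-labelled libraries and 471, 413 and 478 in the WT-labelled libraries (log2 fold change -0.81, SE 0.0998, adjusted p = 3.4e-07). Itgb8, whose product with αv activates latent TGF-β, was rarer still, with 76.0 and 71.2 in the KO-labelled libraries, against 47.7, 32.6 and 44.4 in the WT-labelled libraries (log2 fold change 0.83, SE 0.237, adjusted p = 0.0044). Itgb8 missed the threshold with DESeq2 on the recovered reads, a test that left out WT replicate 2 (adjusted p = 0.103). Itgb6, of epithelial αvβ6, had at most 4 reads in any library.

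Itga8 and Itga2b, the other RGD-binding α chains, were low and lower in the KO-labelled libraries. Itga8, for a nephronectin receptor, had 388 and 434 normalized read counts in the KO-labelled libraries, against 477, 551 and 599 in the WT-labelled libraries (log2 fold change -0.40, SE 0.0967, limma adjusted p = 0.0012). Its call did not hold without KO replicate 1 (adjusted p = 0.0565), which leaves 1 library labelled KO. Itga2b, which with β3 forms the fibrinogen receptor of platelets, had 171 and 132 in the KO-labelled libraries, against 247, 255 and 246 in the WT-labelled libraries (log2 fold change -0.73, SE 0.131, adjusted p = 5.2e-05). Itga2b, Itgb3 and Itgb4 lie in the distal part of chromosome 11, where most neighbours were called lower. These were 129 of 170, 106 of 140 and 99 of 144 tested genes within 5 Mb of each, where 32.6% of all genes were. The median log2 fold changes were -0.38, -0.41 and -0.36, and the neighbours of Itga2b and Itgb3 are partly the same genes. Less those medians, taken as fixed, the 3 genes were at -0.35 (adjusted p = 0.0283), -0.40 (0.0015) and -1.10 (0.000252). These p-values use each gene's own standard error and leave out the spread among its neighbours.

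Collagen receptor α chains were scarce in all libraries, and none of the 4 was called higher. Itga2, of the α2β1 collagen receptor, showed the largest fall of any integrin gene. It had 7.71 and 13.3 normalized read counts in the KO-labelled libraries, from 7 and 12 reads, against 126, 120 and 119 in the WT-labelled libraries, from 143, 121 and 129 reads. The means differed 11.6-fold, and the groups were far apart (log2 fold change -3.46, SE 0.256, limma adjusted p = 1.2e-10), although the gene passed the filter only through the WT-labelled libraries. The size of this fall depends on the few KO-labelled reads. Its log2 fold change ran from -3.82 to -2.41 over the alternatives and was -2.74 in the authors' deposited table. Itga10, a cartilage collagen receptor chain, had 64.97 and 77.8 in the KO-labelled libraries and 123, 97.9 and 103 in the WT-labelled libraries (log2 fold change -0.59, SE 0.183, adjusted p = 0.0080). Its call was lost without KO replicate 1 (0.0833), without WT replicate 1 (0.0505) and with DESeq2 (0.0509), and the annotated gene Gm42957 shares 34.5% of its exonic bases on the same strand. Itga1, of the α1β1 collagen receptor, had 13.2 and 18.9 in the KO-labelled libraries, against 20.3, 23.7 and 33.3 in the WT-labelled libraries, and missed the threshold (adjusted p = 0.116). Itga11, for a fibrillar collagen receptor of fibroblasts, had 52.9 and 47.8 in the KO-labelled libraries, against 46.8, 25.7 and 29.6 in the WT-labelled libraries. Its groups did not overlap, but it missed the threshold (log2 fold change 0.59, SE 0.282, limma adjusted p = 0.0696). It was called higher without WT replicate 1 (0.0192) and less its local median, taken as fixed (0.0299).

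On the RPKM scale the collagen receptor α chains summed to 0.749 and 0.842 in the KO-labelled libraries, against 1.82, 1.54 and 1.63 in the WT-labelled libraries. Itga2 made up 6.62% and 10.1% of this sum in the KO-labelled libraries and 44.6%, 49.8% and 47.0% in the WT-labelled libraries. The sums for laminin receptors given above were many times larger in each library.

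Itga9 and Itga4, related chains that bind tenascin, osteopontin and VCAM-1, were near the limit of detection. Itga9 had 39.6 and 65.6 normalized read counts in the KO-labelled libraries (36 and 59 reads), against 11.5, 7.91 and 2.78 in the WT-labelled libraries (13, 8 and 3 reads). Every KO-labelled value lay above every WT-labelled one (log2 fold change 2.80, SE 0.467, limma adjusted p = 2.1e-05), although the gene passed the filter only through the KO-labelled libraries. On the log2(RPKM + 0.1) scale its difference was 1.21, and the log2 fold change was 1.80 in the authors' deposited table, both called. Itga4 had 15.4 and 17.8 in the KO-labelled libraries, against 28.3, 33.6 and 26.8 in the WT-labelled libraries (log2 fold change -0.79, SE 0.320, adjusted p = 0.0348). Its call was lost in 11 of the 16 alternatives that tested it, among them the leaving out of each of 4 libraries in turn.

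The integrins of leukocytes were represented by a single sizeable transcript, Itgb7. This β chain, which pairs with α4 and αE on lymphocytes, had 262 and 266 normalized read counts in the KO-labelled libraries, against 1206, 1174 and 1339 in the WT-labelled libraries. The groups were far apart, with means that differed 4.70-fold (log2 fold change -2.22, SE 0.0763, limma adjusted p = 2.2e-16). Per length it was 2.66 RPKM in both KO-labelled libraries, against 12.2, 11.9 and 13.6 RPKM in the WT-labelled libraries. Its α partners were far rarer in every library: Itga4 reached at most 0.0925 RPKM and Itgae, for αE, lay between 0.301 and 0.439 RPKM. Itgae did not pass the test, with 50.7 and 61.2 normalized read counts in the KO-labelled libraries and 68.1, 74.2 and 64.8 in the WT-labelled libraries (log2 fold change -0.30, SE 0.209, adjusted p = 0.21). Itgb2, the β chain of leukocyte adhesion, had 17.6 and 10.01 in the KO-labelled libraries and 10.6, 10.9 and 12.95 in the WT-labelled libraries (adjusted p = 0.70). Its α partners Itgal, Itgam and Itgax had 6 reads or fewer in each library and Itgad had 0 in all 5, which allows up to 3 reads a library from counting error alone. Itgam shares 70.0% of its exonic bases with the annotated gene Gm49368.

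Laminin α chains showed the steepest change. Lama4, the α chain of laminins of vessels and mesenchyme, had 79.3 and 89.0 normalized read counts in the KO-labelled libraries, against 984, 1027 and 1059 in the WT-labelled libraries. Both KO-labelled values were far below all 3 WT-labelled ones, a 12.2-fold difference of means (log2 fold change -3.59, SE 0.0952, limma adjusted p = 2.8e-18). The gene lies on chromosome 10 from 38965515 to 39110188, and its 43 tested neighbours had a median log2 fold change of 0.020. Lama2, of the laminin of muscle and peripheral nerve, had 27.5 and 33.4 in the KO-labelled libraries, against 207, 219 and 161 in the WT-labelled libraries, a 6.42-fold difference of means (log2 fold change -2.64, SE 0.187, adjusted p = 6.0e-11). Over the alternatives the log2 fold change of Lama2 ran from -2.77 to -1.80. Its window from the promoter table is printed above. Lama5, the α chain of the most widespread laminin of adult basement membranes, had 559 and 595 in the KO-labelled libraries and 511, 480 and 599 in the WT-labelled libraries. The groups overlapped through WT replicate 3 (log2 fold change 0.13, SE 0.0910, adjusted p = 0.22), and without that library the gene was called higher (log2 fold change 0.22, adjusted p = 0.0480). Lama3, of epithelial laminin, had 13.2 and 10.01 in the KO-labelled libraries, against 22.1, 23.7 and 14.8 in the WT-labelled libraries (adjusted p = 0.10). Lama1, of the embryonic laminin, had between 0 and 9 reads a library.

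**Figure D3:**
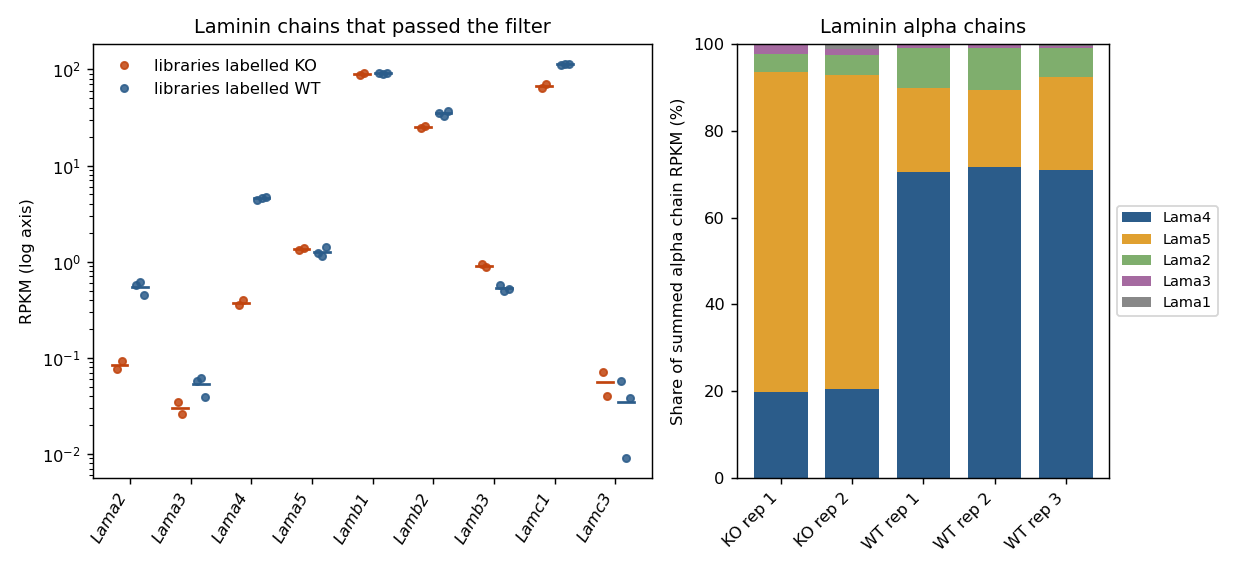
Left, RPKM (log axis) of laminin chains that passed the filter, each point a library, labelled KO to the left of labelled WT, with bars for group means. Right, share of each α chain in the summed α chain RPKM of each library, where Lama5 holds 73.8% and 72.4% in the libraries labelled KO and Lama4 holds 70.4%, 71.7% and 71.0% in those labelled WT.

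The make-up of the laminin α pool differed accordingly. Lama4 was 19.7% and 20.4% of the summed α chain RPKM in the KO-labelled libraries, against 70.4%, 71.7% and 71.0% in the WT-labelled libraries. Lama5 was 73.8% and 72.4% in the KO-labelled libraries and 19.4%, 17.8% and 21.3% in the WT-labelled libraries. The summed α pool was smaller: 1.81 and 1.93 RPKM in the KO-labelled libraries, against 6.26, 6.40 and 6.68 RPKM in the WT-labelled libraries.

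The β and γ chains were carried by Lamb1, Lamb2 and Lamc1. Lamb1, of the β1 chain, had 18525 and 19685 normalized read counts in the KO-labelled libraries and 19572, 19387 and 19649 in the WT-labelled libraries, and these values overlapped (log2 fold change -0.033, SE 0.0374, limma adjusted p = 0.45). Lamb2, for the β2 chain of synapses and the kidney filter, had 5039 and 5357 in the KO-labelled libraries, against 7390, 6826 and 7623 in the WT-labelled libraries. It fell by 0.48 on the log2 scale with no overlap (SE 0.0455, adjusted p = 5.6e-09). Lamc1, whose γ1 chain is part of most laminins, had 17837 and 19971 in the KO-labelled libraries, against 31503, 32256 and 32290 in the WT-labelled libraries. Both KO-labelled values were far below the WT-labelled ones, and the means differed 1.69-fold (log2 fold change -0.76, SE 0.0428, adjusted p = 1.1e-12).

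Lamc1 lies on chromosome 1 from 153218922 to 153332786, and the 44 tested genes within 5 Mb had a median log2 fold change of -0.19. Less this median, taken as fixed, Lamc1 was at -0.57 (adjusted p = 1.8e-10 with the same standard error). Lamb3, for the β3 chain of an epithelial laminin, was the laminin gene that rose, with 140 and 132 in the KO-labelled libraries, against 85.7, 74.2 and 77.7 in the WT-labelled libraries (log2 fold change 0.78, SE 0.170, adjusted p = 0.00042). Lamc3 had 15.4 and 8.90 in the KO-labelled libraries and 12.4, 1.98 and 8.33 in the WT-labelled libraries, which overlapped (adjusted p = 0.24).

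Set out by trimer position, α chain transcripts were by far the fewest. The β chains summed to 112 and 118 RPKM in the KO-labelled libraries and 128, 124 and 129 RPKM in the WT-labelled libraries. The γ chains summed to 66.5 and 73.2 RPKM in the KO-labelled libraries, against 116, 119 and 119 RPKM in the WT-labelled libraries. There were 62.1 and 60.9 β chain transcripts per α chain transcript in the KO-labelled libraries, against 20.4, 19.4 and 19.4 in the WT-labelled libraries. For γ chains the ratios to the α sum were 36.8 and 37.9 in the KO-labelled libraries and 18.5, 18.6 and 17.9 in the WT-labelled libraries. Lamc1 was below Lamb1 in the KO-labelled libraries, at ratios of 0.730 and 0.769, and above it in the WT-labelled libraries, at 1.22, 1.26 and 1.25.

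**Figure D4:**
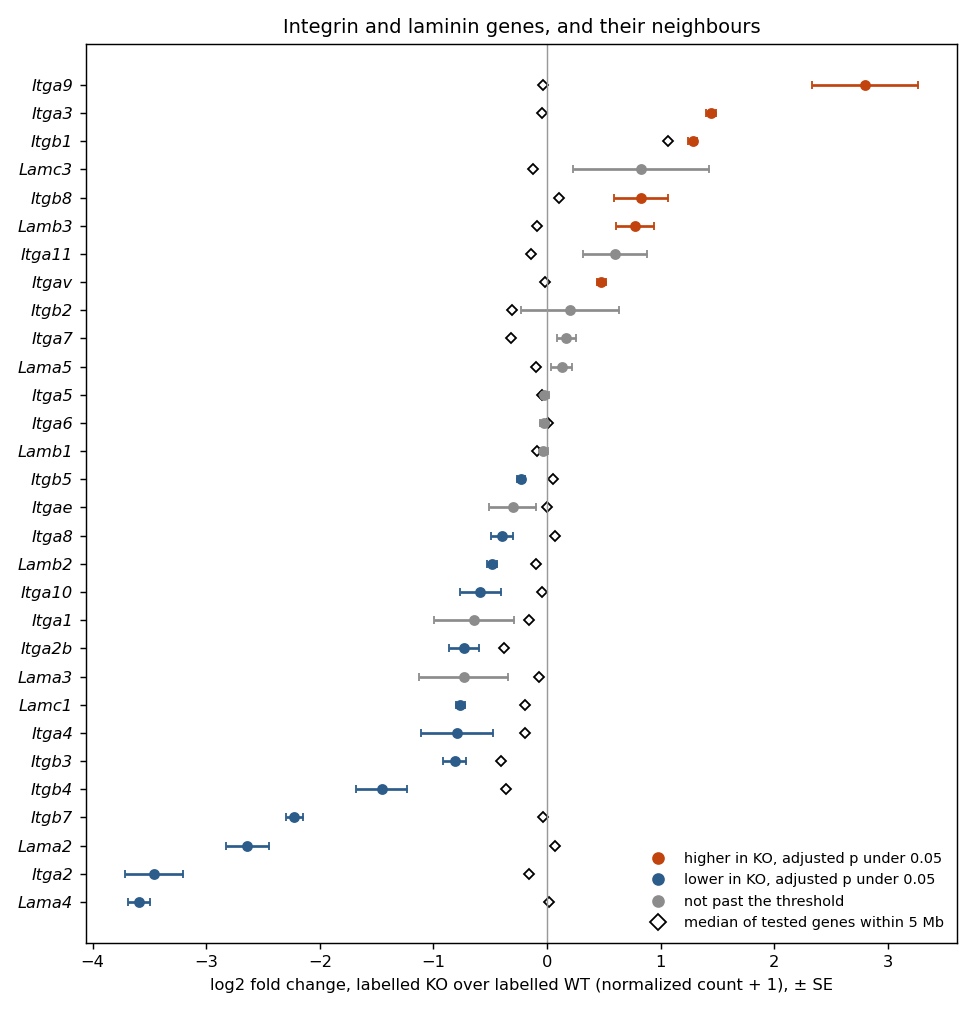
Log2 fold change (labelled KO over labelled WT, on normalized read count + 1) with its standard error for tested integrin and laminin genes, coloured by the limma call; open diamonds show the median over the other tested genes within 5 Mb. The diamond of Itgb1 lies at 1.07, close to its own 1.28, while those of Itga3, Lama4, Lama2, Itga2 and Itgb7 lie between -0.16 and 0.070.

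Genes of a broad adhesion list were called about as often as other genes. The list holds linkers of integrin tails to actin, and also kinases, adaptors and tetraspanins. Of 46 tested genes of this adhesion machinery, 19 were higher and 11 lower in the KO-labelled libraries, 65.2% in all, against 65.3% of all genes. The median log2 fold change was 0.048. The largest rises were those of Ldb3, a Z-disc protein (1.89), Ilk, the integrin-linked pseudokinase that joins β tails to parvins (1.31), and Flnc, a filamin of muscle (0.97). Ldb3 was scarce, at 0.422 and 0.248 RPKM in the KO-labelled libraries, against 0.0677, 0.151 and 0.0583 RPKM in the WT-labelled libraries. Ilk had 12994 and 13049 normalized read counts in the KO-labelled libraries, against 5286, 5260 and 5246 in the WT-labelled libraries (limma adjusted p = 6.9e-18). The neighbours of Ilk had a median log2 fold change of 0.31, and those of Flnc 0.32. The largest falls were those of Ptk2b, a kinase related to focal adhesion kinase (-2.87), Tns1, for tensin 1 (-1.22), and Dab2, an adaptor for integrin uptake (-0.52).

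Basement membrane proteins beside the laminins, with laminin receptors other than integrins, had 10 higher and 15 lower of 32 tested, or 78.1%, next to 65.3% of all genes called and 32.6% in each direction. The largest rises were those of the collagen IV chains Col4a3 and Col4a4 (6.10 and 5.92 as log2 fold changes) and of Nid2, which links laminin to collagen IV networks (3.02). Col4a3 had 546 and 553 normalized read counts in the KO-labelled libraries, against 6.19, 11.9 and 4.63 in the WT-labelled libraries. Col4a4 had 663 and 621 in the KO-labelled libraries, against 13.3, 7.91 and 8.33 in the WT-labelled libraries. Both passed the filter only through the KO-labelled libraries, which favours a difference in this direction. Their KO-labelled values lay far above the filter, but the size of the fold changes depends on WT-labelled values near it. Nid2 had 905 and 987 normalized read counts in the KO-labelled libraries, against 110, 116 and 123 in the WT-labelled libraries (limma adjusted p = 6.3e-16). Nid1, its relative and the main laminin γ1 binder, went the other way with -0.81. It is named after its value was seen. The largest falls were those of Hmcn1, for hemicentin 1 (-2.95), Col18a1, which holds endostatin (-2.32), and Ntn1, for the laminin-related guidance cue netrin 1 (-1.82).

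Integrin ligands other than laminins were called in 35 of 38 tested genes, or 92.1%, next to 65.3% of all genes. Of these 19 were higher and 16 lower, where all genes gave 32.6% in each direction, and the median log2 fold change was 0.047. The largest rises were those of Vwf, the platelet adhesion factor (2.24), Fbn2, for fibrillin 2 (2.20), and Edil3, an αvβ3 and αvβ5 ligand (2.18). Vwf rested on 14.3 and 12.2 normalized read counts in the KO-labelled libraries and 2.78 or fewer in the WT-labelled libraries, and passed the filter only through the KO-labelled ones. The largest falls were those of Tnn, for tenascin N, an α8β1 ligand (-3.79), Thbs2, for thrombospondin 2 (-2.42), and Tgfbi, a transforming growth factor induced RGD protein (-2.35).

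**Figure D5:**
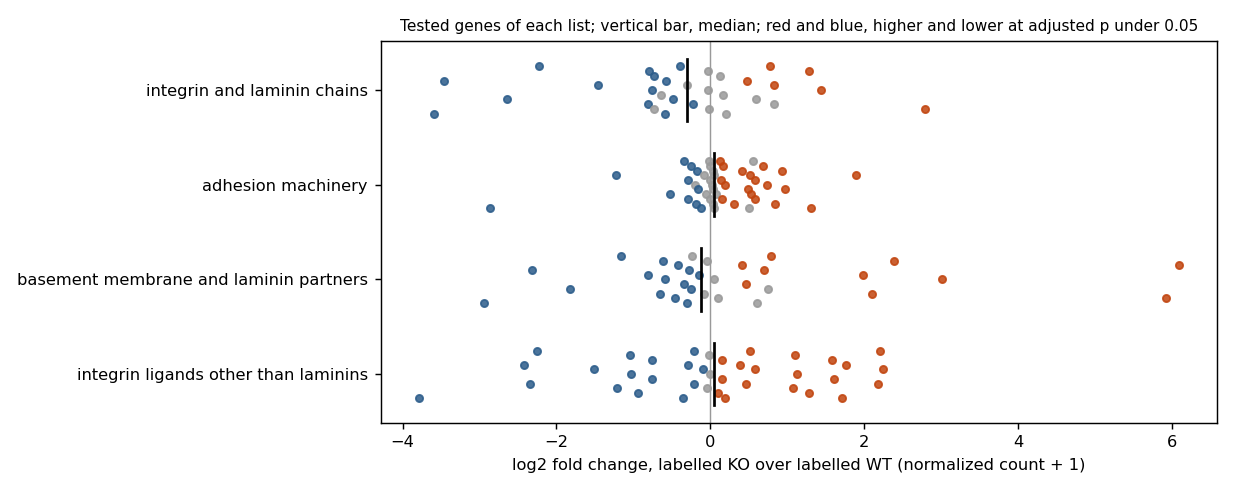
Log2 fold change (labelled KO over labelled WT) of the tested integrin and laminin chains and of the tested genes of 3 related lists; each point is a gene, red where higher, blue where lower and grey where the limma adjusted p was 0.05 or more, and the vertical bars are medians. The medians lie at -0.30, 0.048, -0.12 and 0.047 from top to bottom.

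Markers of cells that carry the rarer chains were summed as well, and the called counts below stand next to 65.3% of all genes called. Fibroblast markers came to 4518 and 4359 RPKM in the KO-labelled libraries, against 5151 to 5366 RPKM in the WT-labelled libraries, with 2 of 10 tested markers higher, 6 lower and none at 0. Endothelial markers summed to 15.0 and 15.6 RPKM in the KO-labelled libraries, against 6.05 to 6.23 RPKM in the WT-labelled libraries, with 3 of 7 tested markers higher and Tie1 at 0. Flt1, a VEGF receptor gene, made up most of this sum. It had 13.7 and 14.4 RPKM in the KO-labelled libraries and 4.94, 5.07 and 5.17 RPKM in the WT-labelled libraries. Kdr was also called higher, with 0.203 and 0.175 RPKM in the KO-labelled libraries and at most 0.0147 RPKM in the WT-labelled libraries. So was Vwf, at under 0.1 RPKM, and both passed the filter only through the KO-labelled libraries. Cdh5, Tek, Eng and Esam were tested and not called, and Pecam1, Emcn, Cldn5 and Tek stayed under 0.1 RPKM. Epithelial markers summed to 2.61 and 2.58 RPKM in the KO-labelled libraries, against 1.42 to 1.72 RPKM in the WT-labelled libraries, with 3 of 4 tested markers higher, 1 lower and Krt5 at 0. Muscle markers summed to 849 and 813 RPKM in the KO-labelled libraries, against 296 to 304 RPKM in the WT-labelled libraries, with all 4 tested markers higher and Myod1 at 0. Acta2 and Tagln, contractile genes also made by activated fibroblasts, made up nearly all of this sum, Acta2 with 620.0 and 591 RPKM in the KO-labelled libraries and 247, 252 and 242 RPKM in the WT-labelled libraries. The other 8 markers, Myog, Myf5, Des, Myh3, Myh11, Ckm, Tnnt1 and Myod1, stayed under 0.1 RPKM and were not tested. Platelet markers, relevant to Itga2b and Itgb3, summed to 2.73 and 2.04 RPKM in the KO-labelled libraries, against 6.87 to 7.92 RPKM in the WT-labelled libraries, with 2 of 3 tested markers lower and Gp6 at 0. Leukocyte markers, relevant to Itgb7, summed to 6.61 and 6.62 RPKM in the KO-labelled libraries and 6.19 to 6.93 RPKM in the WT-labelled libraries, with 2 of 5 tested markers higher and Tyrobp, Cd3e and Cd3g among those at 0. Schwann and neural crest markers summed to 1.60 and 1.67 RPKM in the KO-labelled libraries and 1.53 to 1.65 RPKM in the WT-labelled libraries, with Sox10 and Foxd3 at 0. The part of these markers in the integrin and laminin differences was not tested.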

How the data were processed

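RNA of 5 samples was enriched on poly-T beads, prepared with the Nextera XT kit and read on a NextSeq, per the labels' protocols. STAR, DESeq2 and mm10 are named in the submitters' processing notes, while the sources used here name no counter, annotation or strand setting. The authors deposited a single gene table with, per library, a signal (read counts divided by a size factor, with 100% of values whole multiples of a step within 0.1 reads) and RPKM, and, for their own comparison, log2 fold changes, their standard errors, Wald scores and p-values, per the file headers. Samples were grouped by title. As the values were normalized, the test used was limma 3.58.1 (R 4.3.3, trended prior) on log2(value + 1) over the 13062 genes with 10 or more in at least 2 libraries, with genotype as the factor. Fold changes on this scale are understated for low genes. Depth was 33473103 to 41758681 recovered reads per library, and limits from a count of 0 cover counting error only. The members, lists, roles and tests were chosen with earlier results of these data known, and 3 genes per direction of each list are named by size of change among those called. RPKM sums use the authors' gene lengths. Gene positions and promoters came from RefSeq tables of GRCm38.p6 and exon overlaps from GENCODE M21 basic. The fit was tested on simulated data. Alternatives were rescaling, filters, pseudocounts, RPKM, leaving out each library, a replicate block, edgeR 4.0.16 and also DESeq2 1.42.0 with the recovered reads of 4 libraries (WT replicate 2 was left out, since its size factor near 1 makes whole multiples a weaker check at low values), the authors' comparison and removal of the local median. Protein sequences were not used here. A member, counted in the totals, and a marker are not reported here by name.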

Additional observations from a re-analysis of the deposited data

How the results depend on the processing

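Of the 20 integrin and laminin genes called, 16 kept their direction and call under every one of the 17 alternatives that tested them. The exceptions were Itga4 (11 alternatives), Itga10 (3), Itga8 (1) and Itgb8 (1). Of the 11 not called, 3 were called under some alternative: Itga11, Itga7 and Lama5. Itga7 was called only with the local median removed. The p-values of that alternative take the median as fixed, so a call kept or gained there does not test whether a gene departs from its region. Signs turned for uncalled genes near 0. With single libraries left out, the log2 fold changes ran between -0.18 and 0.58 for Itgb2, -0.076 and 0.025 for Itga6, -0.054 and 0.0082 for Itga5 and -0.077 and 0.011 for Lamb1, turning without KO replicate 1. With the local shift removed they were 0.025 for Itga5 and 0.053 for Lamb1. Laminin chains called higher numbered 1, and between 1 and 2 when single libraries were left out. They numbered 2 with the replicate number as a block (Lama5 added) and 2 with the local shift removed. The cause was not tested. The labels do not say that replicate numbers mark a shared batch, and deviations of same-numbered libraries correlated at -0.0097 and -0.0050. The block gave 7 members higher and 13 lower, and leaving out libraries gave 6 to 7 higher and 11 to 14 lower. Removing the local median moved Itgb1 most, to 0.21. TMM and median-ratio rescaling changed no member's call. Itga1, Itgb2, Lama3 and Lamc3 had few reads and were not called, and the size of difference detectable there was not measured.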
